A study of Mus musculus with 13 samples.

Results

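The genes described here carry glucose into the heart cell and through glycolysis to lactate. The rule named 10 of them, and the members were found as the probes annotated to those symbols: the transporters Slc2a1 and Slc2a4, the hexokinases Hk1 and Hk2, the muscle phosphofructokinase Pfkm, the aldolase Aldoa, the enolases Eno1 and Eno3, and the lactate dehydrogenase subunits Ldha and Ldhb. Of these 10, 8 were measured, of 8336 genes tested in all, and no named probe was found for Eno1 or Ldhb. A probe named Eno1b, a gene nearly identical to Eno1, was not counted as either. Pfkm had 3 probes, each other measured member had 1, and each was detected on all 13 arrays.

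Whole hearts of male C57BL/6 mice aged 8 to 10 weeks were taken 1 week after transverse aortic constriction (TAC), which narrows the aorta and loads the left ventricle, or after a sham operation. The mice received tauroursodeoxycholic acid (TUDCA), a bile acid derivative used as a chemical chaperone, or vehicle by daily oral gavage. The 4 groups were vehicle after sham surgery (Veh-Sham, 3 hearts), vehicle after constriction (Veh-TAC, 3 hearts), the bile acid after sham surgery (TUDCA-Sham, 3 hearts) and the bile acid after constriction (TUDCA-TAC, 4 hearts). No mouse carried a transgene or a deleted gene according to the labels, and each heart was hybridized to its own Illumina MouseRef-8 array. The labels call the hearts biological replicates, and the hearts carry here the replicate number of those descriptions, which differs from the number in most sample titles. Veh-TAC hearts 1, 2 and 3 are thus titled Veh-TAC 3, 8 and 9, and TUDCA-TAC hearts 1, 2, 3 and 4 are titled TUDCA-TAC 2, 3, 4 and 1.

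The heart changes its fuel and its enzymes around birth. The fetal heart relies on glucose and lactate and carries GLUT1 (Slc2a1), hexokinase 1 (Hk1) and alpha-enolase (Eno1), while the adult heart relies mostly on fatty acids and carries the insulin-responsive transporter GLUT4 (Slc2a4), hexokinase 2 (Hk2) and the muscle enolase Eno3. The adult heart also holds much of the H subunit of lactate dehydrogenase (Ldhb), whereas the M subunit (Ldha) is typical of tissues that make lactate. Under pressure overload the heart is known to return in part to its fetal pattern of genes, which is why the isoforms were compared here.

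Several of these genes carry E-box or hypoxia-response letters upstream of their start sites. RefSeq promoter entries of GRCm38.p6, each 300 bases with 250 before the start site, were found for 9 of the 10 members, with 18 entries in all, and Slc2a4 had none. ACGTG, the core letters bound by hypoxia-inducible factors, was searched on both strands. It stood in 8 of the 18 entries, from 6 members, against 19.6% of 32851 promoters of the same length. That share counts entries and not genes. Entries of a gene can overlap, and the matching entries of Aldoa hold the same site. CACGTG, an E-box that holds ACGTG on both strands, stood in 2 of the 18, from Ldha and Pfkm, against 7.15% of all. The sequences below give the 150 bases before the start site for Eno3, which was called in these hearts, and for 4 members with ACGTG there, where 11.2% of all windows of that length hold it. Capitals mark ACGTG or its reverse CACGT, and CACGTG where both overlap. Each is written 5′ to 3′ along the strand of the gene.
Slc2a1, chr4:119108595-119108744, + strand: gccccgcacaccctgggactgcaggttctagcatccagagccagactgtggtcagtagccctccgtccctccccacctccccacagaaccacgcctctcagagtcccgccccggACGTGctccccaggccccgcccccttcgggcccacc
Hk2, chr6:82774455-82774604, - strand: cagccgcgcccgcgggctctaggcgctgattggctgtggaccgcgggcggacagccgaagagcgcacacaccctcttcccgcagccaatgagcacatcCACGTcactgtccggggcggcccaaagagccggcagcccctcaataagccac
Pfkm, chr15:98092439-98092588, + strand: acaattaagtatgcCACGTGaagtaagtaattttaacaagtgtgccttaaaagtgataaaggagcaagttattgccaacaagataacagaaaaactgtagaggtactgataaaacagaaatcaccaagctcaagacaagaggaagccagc
Eno3, chr11:70657026-70657175, + strand: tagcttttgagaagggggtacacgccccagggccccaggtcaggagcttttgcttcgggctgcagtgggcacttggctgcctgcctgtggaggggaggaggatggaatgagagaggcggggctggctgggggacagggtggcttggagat
Ldha, chr7:46845654-46845803, + strand: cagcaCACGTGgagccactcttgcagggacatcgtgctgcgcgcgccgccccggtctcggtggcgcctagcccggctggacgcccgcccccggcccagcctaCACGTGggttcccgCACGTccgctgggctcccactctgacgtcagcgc
The Pfkm window belongs to 1 of 4 start sites listed for that gene and the Ldha window to 1 of 2. The Ldha window held CACGTG at 2 places and CACGT at another, and the Eno3 window held neither motif. A match is a description of these letters, and binding was not measured.

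Correlations between hearts ran from 0.954 to 0.993, and 11647 to 12791 probes were detected. TUDCA-TAC heart 4 had the lowest background, at an intensity of 148.3 against 244.1 to 295.4 on the other 12 arrays, and it lay apart from the rest together with TUDCA-TAC heart 3. Background also differed between groups. All TUDCA-TAC arrays, from 148.3 to 254.2, lay below all Veh-TAC arrays, from 282.8 to 290.1, so these groups differ in background as well as in treatment. Elsewhere only TUDCA-Sham heart 3, at 244.1, lay as low. Of the cardiomyocyte markers 9 of 10 were measured. Actc1, Myl2, Myl3 and Mb lay between 16.04 and 16.10 on the log2 scale in the vehicle groups, at the top of the range of the arrays, where little change can show, and of the others only Tnni3 was called in the Veh-TAC group (-0.61), with Myh6 at -0.35 ± 0.17. Some markers of other cells moved with the groups. The summed signal of 7 fibroblast markers ran from 54700 to 60900 in the Veh-Sham group, from 70700 to 83200 in the Veh-TAC group and from 56400 to 63300 in the TUDCA-TAC group, but most of it was Dcn, and 5 of the 7 were called higher in the Veh-TAC group. With TUDCA 1 of the 7 was called, Col1a1, with a mean of 9.20 in the TUDCA-Sham and 11.41 in the TUDCA-TAC hearts. The sum of 6 macrophage markers ran from 12600 to 13500, from 21800 to 26000 and from 11700 to 15100 in the same 3 groups, with 5 of 6 higher in the Veh-TAC group and 0 with TUDCA. The 2 adipocyte markers measured, of 6, summed to 713 to 1670, 324 to 411 and 441 to 1330, and neither was called (Adipoq -1.66 ± 0.61 in the Veh-TAC group, adjusted p = 0.0663). As shares of the Veh-Sham mean, the Veh-TAC sums of the erythroid, endothelial and neutrophil markers were 75%, 128% and 178%. Of 3 erythroid markers 1 was called lower. Of 5 endothelial markers 1 was called higher, Egfl7 (mean 12.46 against 13.21), and their median log2 change was -0.20. Neither of the 2 neutrophil markers was called, and their sums overlapped, at 555 to 635 in the Veh-Sham and 536 to 1500 in the Veh-TAC hearts. The smooth muscle, pericyte and skeletal muscle sums in the Veh-TAC group were 112%, 79.1% and 133%, and smooth muscle reached 134% in the TUDCA-TAC group. Of 3 skeletal muscle markers Tnni2 was called higher in the Veh-TAC group (mean 8.41 against 9.47), while Mylpf and Pvalb were lower and not called. No smooth muscle or pericyte marker was called there. In whole heart RNA, fewer cells of a type and less RNA per cell cannot be told apart, and the part of these shifts in the results that follow was not tested.

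GLUT4 fell in the Veh-TAC group and GLUT1 did not move with it. The signals are log2 values after background correction and quantile normalization, and the threshold for a call was an adjusted p of 0.05 (limma with Benjamini-Hochberg adjustment over 8336 genes). Slc2a4, the transporter that insulin and contraction bring to the cell surface, measured 11.16, 11.14 and 11.19 in the Veh-Sham hearts and 10.57, 9.81 and 10.03 in the Veh-TAC hearts. All 3 Veh-TAC hearts lay below all Veh-Sham hearts, with Veh-TAC heart 1 the nearest to them. The fall was 1.03 on the log2 scale, to 49% of the Veh-Sham signal (log2 fold change -1.03 ± 0.19 (SE), adjusted p = 0.00209, 3 hearts a group). Of 27 other settings 1 ended that call, the test of each gene alone that the study's methods name, after Benjamini-Hochberg adjustment (adjusted p = 0.0664). The adipocyte marker Adipoq ranged from 9.36 to 10.58 in the Veh-Sham hearts and from 7.99 to 8.32 in the Veh-TAC hearts, and the part of adipocytes in the fall of Slc2a4 was not tested. With TUDCA, Slc2a4 measured 11.15, 10.99 and 11.14 in the TUDCA-Sham hearts. The TUDCA-TAC hearts 1, 2, 3 and 4 measured 10.85, 10.95, 10.73 and 11.32. These groups overlapped through TUDCA-TAC heart 4 alone, since hearts 1, 2 and 3 lay below all TUDCA-Sham hearts. The response to TAC was -0.13 ± 0.17 (adjusted p = 0.761) with TUDCA. It ran from -0.31 to -0.02 over 27 other settings and was called in none of them. All 4 TUDCA-TAC hearts lay above all 3 Veh-TAC hearts, by 0.83 ± 0.17 in the fit (adjusted p = 0.00972). Without Veh-TAC heart 2 that difference was 0.66 (adjusted p = 0.0543), with the background of each array as a term it was 0.60 (adjusted p = 0.119), and a fit of these groups alone and the test of each gene alone also ended the call (adjusted p = 0.0529 and 0.137). The difference between both responses was 0.90 ± 0.25, with a 95% interval from 0.35 to 1.45, and did not pass the test (adjusted p = 0.0869).

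Slc2a1, the basal transporter, ranged from 10.72 to 10.87 in the Veh-Sham hearts and from 10.65 to 11.05 in the Veh-TAC hearts. The change was 0.05 ± 0.14, with a 95% interval from -0.25 to 0.34 (adjusted p = 0.836). In the TUDCA-Sham hearts it ranged from 10.52 to 10.75 and in the TUDCA-TAC hearts from 10.38 to 10.81, and it was called in none of the 5 comparisons.

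**Figure D1:**
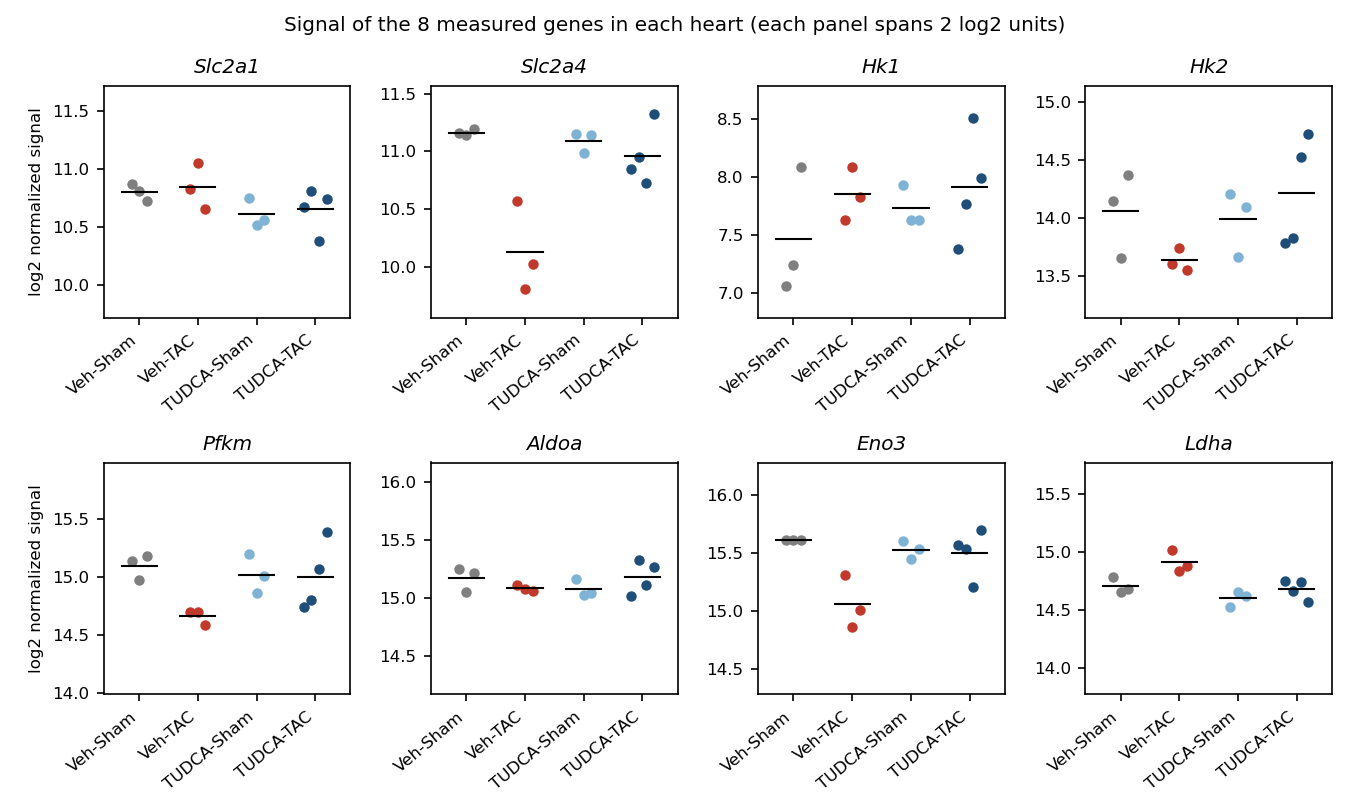
Normalized log2 signal (y axis) of the 8 measured genes in each of the 13 hearts, by group (x axis); each point is 1 heart, the line is the group mean, and each panel spans the same range of log2 units. The 3 Veh-TAC hearts lie below the Veh-Sham hearts for Slc2a4, Pfkm and Eno3 and above them for Ldha, while Slc2a1, Hk1, Hk2 and Aldoa overlap.

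Across the 8 measured members, 0 rose and 2 fell (Slc2a4 and Eno3) in Veh-TAC against Veh-Sham hearts, with 12.5% of all genes called higher and 12.5% called lower. For 4 of the 8 (Slc2a4, Pfkm, Eno3 and Ldha) the groups did not overlap, as for 43.1% of all genes, so that share of members is near the background. At an unadjusted p under 0.05 there were 3 members of 8, and 37.3% of all genes. The median log2 change of the 8 was -0.26, against -0.03 over all genes. When arrays were scaled to a common median instead, the median of all genes moved to 0.12 and 1356 genes were called higher and 357 lower, against 1046 and 1039, while Slc2a4 and Eno3 were still called lower.

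Eno3, the enolase of adult muscle, was among the brightest probes on the arrays. It measured 15.61 in each of the 3 Veh-Sham hearts and 15.31, 14.86 and 15.01 in the Veh-TAC hearts. Every Veh-TAC heart was lower, Veh-TAC heart 1 again the least, and Eno3 fell by 0.54 to 68.6% of the Veh-Sham signal (SE 0.14, adjusted p = 0.0142). Without Veh-TAC heart 2 the call was lost (adjusted p = 0.0719). The test of each gene alone, after Benjamini-Hochberg adjustment, also ended it (adjusted p = 0.0792). The TUDCA-Sham hearts measured 15.60, 15.45 and 15.53 and the TUDCA-TAC hearts 15.57, 15.53, 15.21 and 15.70. In the TUDCA groups the response was -0.02 ± 0.13 (adjusted p = 0.955). TUDCA-TAC exceeded Veh-TAC by 0.44 ± 0.13 (adjusted p = 0.039), although TUDCA-TAC heart 3 lay below Veh-TAC heart 1, and that call was lost when any 1 of 11 of the 13 hearts was left out (adjusted p up to 0.172). The difference between the responses, 0.52 ± 0.19, was not called (adjusted p = 0.156). The raw intensity of Eno3 ran from 42% to 83.2% of the highest intensity on its array.

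Pfkm, the muscle form of the enzyme that commits sugar to glycolysis, gave a result that turned on the probe. Its brightest probe measured 15.14, 14.98 and 15.18 in the Veh-Sham hearts and 14.70, 14.70 and 14.59 in the Veh-TAC hearts. These groups did not overlap, but the change of -0.44 ± 0.16 missed the threshold (adjusted p = 0.063), which it passed under 12 of 27 other settings. The next probe measured 13.24, 13.24 and 13.50 against 12.64, 12.59 and 12.58, a change of -0.73 ± 0.18. The dimmest measured 10.11, 10.16 and 10.28 against 9.39, 9.23 and 9.09, a change of -0.95 ± 0.14. Both of these passed when all 11078 named probes were tested (adjusted p = 0.012 and 0.000606, against 0.0669 for the brightest).

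With TUDCA, the 3 probes of Pfkm responded to TAC by -0.02 ± 0.15, 0.10 ± 0.17 and -0.05 ± 0.13, from brightest to dimmest, and none was called. Against the Veh-TAC group the TUDCA-TAC group was higher by 0.34 ± 0.15 (adjusted p = 0.148 over probes), 0.76 ± 0.17 (0.0124) and 0.87 ± 0.13 (0.00227). The difference between the responses was called only for the dimmest probe, at 0.90 ± 0.19 (adjusted p = 0.0445), against 0.0991 and 0.333 for the others. The order of the 3 probes by size of change in the Veh-TAC group was the reverse of their order by brightness. The brightest reached 38.5% to 71.4% of the highest intensity on its array. Whether this compressed its change was not tested.

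**Figure D2:**
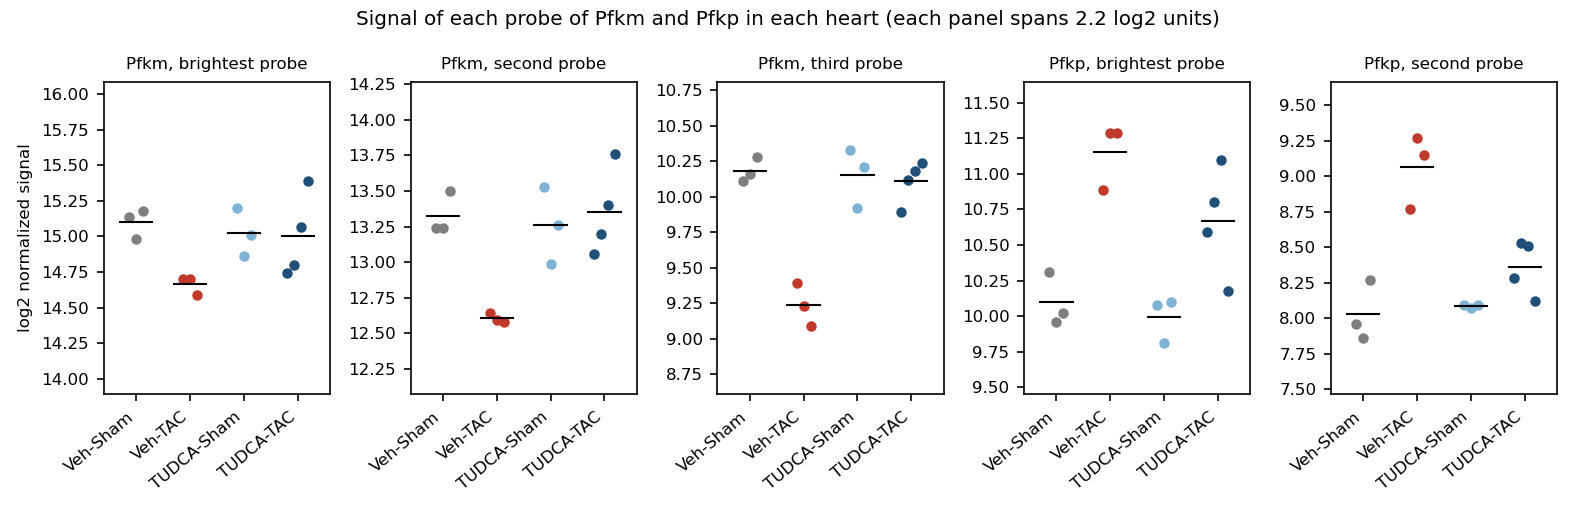
Normalized log2 signal (y axis) of the 3 probes of Pfkm and both probes of Pfkp in each of the 13 hearts, by group (x axis); points are hearts, lines are group means. Every Pfkm probe was lower in the 3 Veh-TAC hearts than in the Veh-Sham hearts, by 0.44, 0.73 and 0.95 on average, and both Pfkp probes were higher.

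The hexokinases, which trap glucose in the cell as its phosphate, were not called in any comparison. Hk2 measured 14.14, 13.65 and 14.37 in the Veh-Sham hearts and 13.60, 13.74 and 13.55 in the Veh-TAC hearts, which overlapped, with a change of -0.43 ± 0.26 (adjusted p = 0.26). In the TUDCA-TAC hearts it measured 13.78, 13.82, 14.52 and 14.72, all above the Veh-TAC hearts, with hearts 3 and 4 well above hearts 1 and 2. The difference from the Veh-TAC group was 0.58 ± 0.24 (adjusted p = 0.126), and 0.17 when hearts 3 and 4 were left out. Hk1 ranged from 7.06 to 8.09 in the Veh-Sham hearts and from 7.63 to 8.09 in the Veh-TAC hearts, a change of 0.39 ± 0.29 (adjusted p = 0.361). The Hk1 probe was dim, at 1.44 to 3.81 times the background of its array, and its spread within the Veh-Sham group (SD 0.55, n = 3) was larger than its change.

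Ldha, the lactate dehydrogenase subunit that hypoxia is known to raise, measured 14.79, 14.66 and 14.68 in the Veh-Sham hearts and 15.02, 14.84 and 14.88 in the Veh-TAC hearts. The groups did not overlap, and the change of 0.20 ± 0.10 did not pass the test (adjusted p = 0.142). The 4 TUDCA-TAC hearts, from 14.57 to 14.75, all lay below the 3 Veh-TAC hearts, a difference of -0.23 ± 0.09 (adjusted p = 0.1). Aldoa, the muscle aldolase, ranged from 15.05 to 15.25 in the Veh-Sham hearts and from 15.06 to 15.11 in the Veh-TAC hearts, a change of -0.09 ± 0.11 with a 95% interval from -0.32 to 0.14 (adjusted p = 0.574).

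In TUDCA-TAC against TUDCA-Sham hearts, 0 of the 8 members were called, with 1.02% of all genes called higher and 0.768% lower, and all 8 overlapped between the groups, where 15% of all genes did not. The lowest adjusted p was 0.667, 0 members had an unadjusted p under 0.05, and Slc2a4 had the largest fall. In TUDCA-TAC against Veh-TAC hearts, 2 of 8 were higher, Slc2a4 and Eno3, and 0 lower, with 8.17% of all genes higher and 8.34% lower. The groups did not overlap for 4 members (Slc2a4, Hk2, Pfkm and Ldha), against 26.2% of all genes. This comparison shares the Veh-TAC hearts with the response to TAC under vehicle. Between the sham groups 0 of 8 were called, as were 0% of all genes higher and 0% lower, and 1 member (Eno3) did not overlap, against 7.38% of all genes. At an unadjusted p under 0.05 that comparison held 203 of the 8336 genes and 0 members. For the difference between the responses 0 of 8 were called, with 0.852% of all genes called higher and 1.28% lower, and 2 members had an unadjusted p under 0.05, as did 19.6% of all genes.

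**Figure D3:**
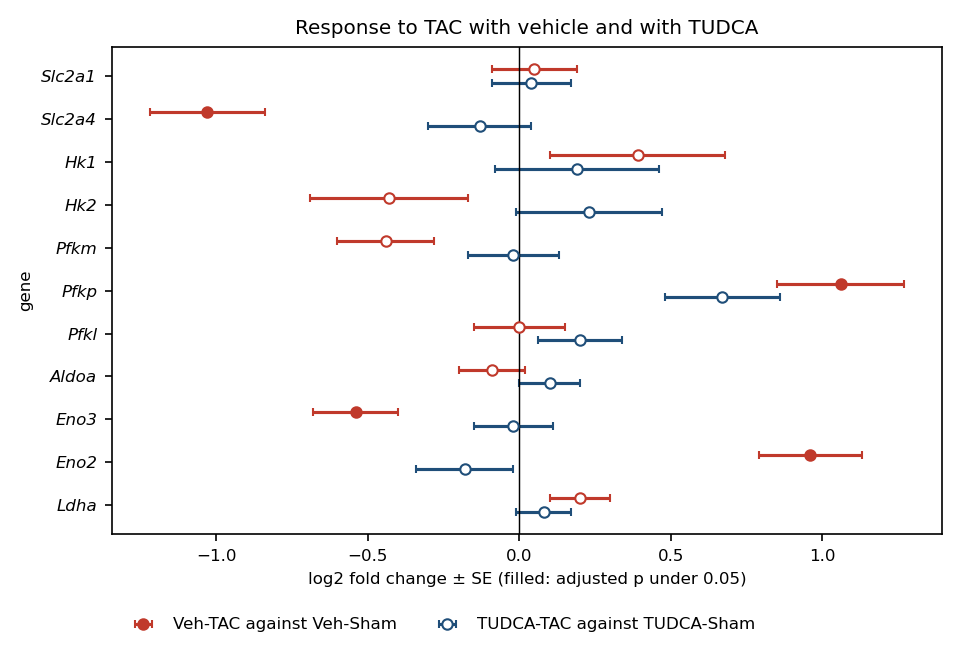
Log2 fold change (x axis, with its standard error as bars) of each measured gene and of Pfkp, Pfkl and Eno2 (y axis) in the Veh-TAC group against the Veh-Sham group and in the TUDCA-TAC group against the TUDCA-Sham group; filled points passed the adjusted p. Slc2a4 and Eno3 fell and Pfkp and Eno2 rose with vehicle, and 0 of these 11 genes were called with TUDCA.

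Of the 3 partner isoforms of Pfkm and Eno3, Pfkp and Eno2 rose in the Veh-TAC group and Pfkl was not called. Pfkp, the platelet-type phosphofructokinase, measured 10.31, 9.96 and 10.02 in the Veh-Sham hearts and 10.89, 11.29 and 11.29 in the Veh-TAC hearts. The groups did not overlap and Pfkp rose by 1.06 ± 0.21, to 208% (adjusted p = 0.00317), with 1.04 ± 0.16 by its other probe. In the TUDCA-TAC hearts it measured 10.59, 10.80, 11.10 and 10.18, all above the TUDCA-Sham hearts (9.81 to 10.10), but heart 4 by little. The response with TUDCA was 0.67 ± 0.19 (adjusted p = 0.0995). It was called under 5 of 27 other settings, among them without heart 4 (0.84, adjusted p = 0.0228) and with array background as a term (0.90, adjusted p = 0.0405). By the other probe of Pfkp, which is the dimmer, the response with TUDCA was 0.28 ± 0.15 (adjusted p = 0.39 over probes). The difference of TUDCA-TAC from Veh-TAC was -0.49 ± 0.19 (adjusted p = 0.109 over probes) by the brighter probe and -0.71 ± 0.15 (adjusted p = 0.00996) by the dimmer, which was called. The difference between the responses was -0.39 ± 0.28 and -0.76 ± 0.22, and neither was called (adjusted p = 0.499 and 0.0923). Pfkl, the liver form, had a change of 0.00 ± 0.15 in the Veh-TAC group (adjusted p = 0.989).

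Eno2, the neuronal enolase, measured 6.54, 6.57 and 6.45 in the Veh-Sham hearts and 7.09, 7.70 and 7.65 in the Veh-TAC hearts. It rose by 0.96 ± 0.17 (adjusted p = 0.00175). In the TUDCA-Sham hearts it ranged from 6.94 to 7.18 and in the TUDCA-TAC hearts from 6.60 to 7.05, a change of -0.18 ± 0.16 (adjusted p = 0.613). TUDCA-TAC lay below Veh-TAC by 0.63 on the log2 scale (log2 difference -0.63 ± 0.16, adjusted p = 0.0192), and the difference between the responses was -1.14 ± 0.23 (adjusted p = 0.0375). Both calls depended on the setting. Without TUDCA-TAC hearts 3 and 4 they became -0.46 (adjusted p = 0.102) and -0.96 (adjusted p = 0.0668). The difference from Veh-TAC lost its call under 7 of 27 other settings, among them without Veh-TAC heart 2 (-0.52) or 3 (-0.54) and with array background as a term (adjusted p = 0.167). The difference between the responses lost it under 14 of 25, of which 9 left out 1 heart (adjusted p up to 0.12), and it was -0.38 without background correction (adjusted p = 0.0537) and -0.39 in the authors' table. The TUDCA-Sham hearts all lay above the Veh-Sham hearts, by 0.51 ± 0.17 in the fit, which was not called. Part of the difference between the responses rests on them. The Eno2 probe was dim, at 1.28 to 2.04 times background, and without background correction its rise in the Veh-TAC group was 0.33.

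The balance of an isoform pair was taken in each heart as the log2 signal of the fetal or non-muscle isoform minus that of the adult isoform. Since probes differ in brightness, only its change between groups is read. Both isoforms were measured for 2 of the 4 pairs among the members, Slc2a1 over Slc2a4 and Hk1 over Hk2. The balance of Slc2a1 over Slc2a4 was -0.29, -0.33 and -0.47 in the Veh-Sham hearts and 0.26, 1.24 and 0.62 in the Veh-TAC hearts. It was higher in every Veh-TAC heart, by 1.07 on average (2.11-fold), with an exact two-sided permutation p = 0.1, the smallest that 3 against 3 hearts allow. In the TUDCA-Sham hearts it was -0.41, -0.47 and -0.58 and in the TUDCA-TAC hearts -0.18, -0.14, -0.35 and -0.58, a change of 0.17 (exact permutation p = 0.286). TUDCA-TAC lay below Veh-TAC in every heart, by 1.02 on the log2 scale (change -1.02, exact permutation p = 0.0571, the smallest that 3 against 4 allow). Since the signal of Slc2a1 changed by 0.05, nearly all of the change with vehicle came from Slc2a4.

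The balance of Hk1 over Hk2 was -7.09, -6.41 and -6.28 in the Veh-Sham hearts and -5.97, -5.64 and -5.72 in the Veh-TAC hearts. These did not overlap, with a change of 0.82 (1.76-fold, exact permutation p = 0.1, the smallest possible), although neither gene alone was called. The size rests in part on the dim Hk1 probe, whose own change ran from 0.16 to 0.70 over 27 other settings. With TUDCA the change was -0.04 (exact permutation p = 0.857), with TUDCA-TAC hearts from -6.72 to -6.01.

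The pairs Pfkp over Pfkm, Pfkl over Pfkm and Eno2 over Eno3 were taken after the data had been seen, since the probes of Eno1 and Ldhb were not named. Pfkp over Pfkm was higher in all 3 Veh-TAC hearts than in all Veh-Sham hearts, 2.82-fold, and Eno2 over Eno3 2.83-fold. The latter is 1.5 on the log2 scale, and was 0.87 both without background correction and in the authors' table. Pfkl over Pfkm changed by 0.44 (1.36-fold), which came from Pfkm. Each had an exact permutation p = 0.1, the smallest possible. In the TUDCA groups Pfkp over Pfkm changed by 0.69 (exact permutation p = 0.229), Pfkl over Pfkm by 0.22 (0.0571) and Eno2 over Eno3 by -0.16 (0.457). For Pfkl over Pfkm the TUDCA groups did not overlap either, and 0.0571 was the smallest p possible, but the sign changed with the other Pfkl probe. Between the sham groups Eno2 over Eno3 was higher with TUDCA by 0.60, without overlap. No p of these balances could pass 0.05.

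**Figure D4:**
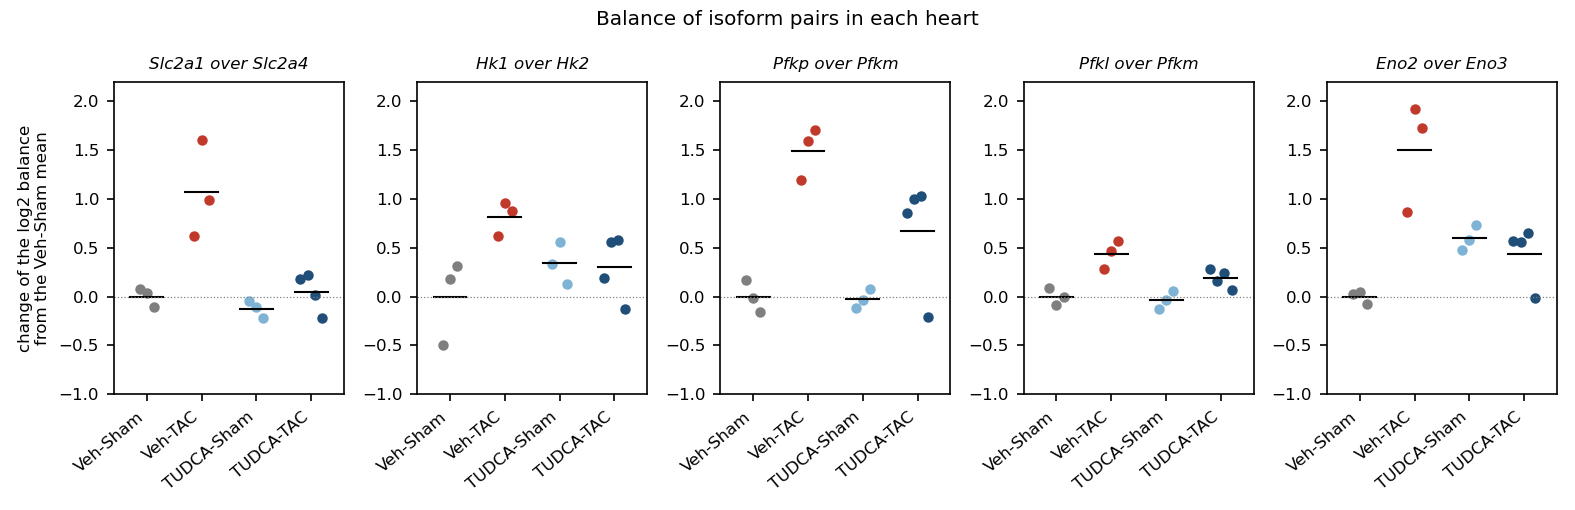
Change of the log2 balance of 5 isoform pairs from its Veh-Sham mean (y axis) in each of the 13 hearts, by group (x axis); points are hearts, lines are group means. All 3 Veh-TAC hearts lie above all Veh-Sham hearts in each pair, 1.36-fold to 2.83-fold on average (Eno2 over Eno3, the highest, fell to 0.87 on the log2 scale without background correction), and TUDCA-TAC heart 4 lies below the other TUDCA-TAC hearts in each pair.

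The wider set of 81 genes of glucose use, of which 52 were measured, had 5 genes higher and 13 lower in the Veh-TAC group, 34.6% in all against 25% of all genes, with a median log2 change of -0.16 against -0.03 over all genes. With TUDCA 0 of the 52 were called, near the 1.79% of all genes called in that comparison. The 3 other transporters measured, Slc2a3, Slc2a8 and Slc2a10, were called in no comparison. Of 8 other glycolytic enzymes, Pfkp and Eno2 rose and Pgam2, the muscle phosphoglycerate mutase, fell by 0.38 (SE 0.12, adjusted p = 0.0352), while Gapdh changed by 0.01 ± 0.08 (SE, adjusted p = 0.952). Aldoc had no measured probe.

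The genes called next to these included regulators of pyruvate dehydrogenase, the mitochondrial complex that turns pyruvate into acetyl-CoA. They were listed among 15 measured regulators of glucose use, most of which, such as Hif1a, Txnip and Pfkfb4, do not act on that complex. Of these 15, 3 rose and 3 fell in the Veh-TAC group, where 12.5% of all genes were called higher and 12.5% lower. Pdk3, a kinase that switches pyruvate dehydrogenase off, rose by 0.89 (SE 0.16, adjusted p = 0.00187), while its relative Pdk2 fell by 1.03 (SE 0.19, adjusted p = 0.00236). Pdp2 and Pdp1, phosphatases that switch the complex on, fell by 1.42 and 0.52. Hif1a, the hypoxia-inducible factor subunit, rose by 0.49 and Pfkfb4, which sets the level of an activator of phosphofructokinase, by 0.37. For Pdk4, the kinase that fatty acids and fasting induce, the change was -0.39 ± 0.40 (adjusted p = 0.511).

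Of 12 genes of pyruvate and lactate use, 6 fell and 0 rose, with a median of -0.52. Of all genes 12.5% were called lower and 12.5% higher, with a median of -0.03. Dlat, the E2 subunit of pyruvate dehydrogenase, fell from 12.03 ± 0.18 to 11.08 ± 0.09 (SD, n = 3). The alanine aminotransferases Gpt and Gpt2, which turn pyruvate into alanine, fell by 1.18 and 1.13, and Got1, Mdh1 and Gpd2 of the shuttles that carry cytosolic reducing power fell by 0.52, 0.51 and 0.62. Of 14 genes of glycogen and the pentose phosphate route, 3 fell and 0 rose, a share near the 25% of all genes called either way. Phkg1, the catalytic subunit of muscle phosphorylase kinase, had the largest fall of the 52, from 9.70 ± 0.15 to 7.98 ± 0.21 (SD, n = 3), while Pygm, muscle glycogen phosphorylase, fell by 0.89 and Rpia of the pentose route by 0.50.

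In TUDCA-TAC against Veh-TAC hearts, 9 of the 52 were higher and 4 lower, 25% in all against 16.5% of all genes. Those higher were Pdk2, Pdp1, Pdp2, Dlat, Gpt, Gpt2, Gpd2, Phkb and Phkg1, by 0.52 to 1.13, and those lower were Eno2, Pfkfb4, Pdk3 and Gyg, the protein that primes glycogen. The difference between the responses was called for 3 of the 52 (5.77%), against 2.14% of all genes. It was -1.14 for Eno2, -0.94 for Pdk3 (adjusted p = 0.0484) and 1.27 for Phkg1 (adjusted p = 0.0205).

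Over the 13 hearts Slc2a4 and Eno3 moved closely together, with a Pearson correlation of 0.96, and of 0.90 once the group means were removed. Hk2 and Pfkm had 0.88 and 0.92. These are descriptions over hearts that share the groups and the arrays, and Slc2a4, Eno3, Hk2 and Pfkm were all highest in TUDCA-TAC heart 4. The gene most like Slc2a4 in its pattern was Uqcrc1 (Pearson 0.983, Spearman 0.894), and the gene most like Eno3 was Ak1 (0.981 and 0.917). Hk2 was closest to Vldlr (0.980), Pfkm to Arhgap20 (0.975), Ldha to Tlr4 (0.946) and Hk1 to Kifc2 (0.924). For Slc2a1 (Gtf3c3, 0.887) and Aldoa (Tbx5, 0.809), which varied little between groups, the nearest patterns were looser.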

How the data were processed

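Raw values per probe were read for 13 hearts. The authors deposited the mean bead intensity of 25697 probes per array, with neither background subtraction nor normalization, and beside it a detection p-value that compares the probe with negative control beads. The authors also deposited log2 values for 11732 probes, which equalled the log2 intensities after quantile normalization over those probes to within 5e-07 and were used as an alternative.

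Raw intensities were background-corrected in limma 3.58.1 (R 4.3.3) by normexp (offset 16), which took its controls from the detection p-values, and then put through quantile normalization and log2. Probes with a detection p under 0.05 on at least 3 arrays were kept, 13557 in all. The probe table names probes of the normalized table alone, 11078 of them, and the brightest stood for each of 8336 genes. A means model of 4 groups was fitted over all hearts with eBayes, with 5 comparisons and Benjamini-Hochberg adjustment. Intervals use 12.3 moderated degrees of freedom. Balances were tested by exact two-sided permutation over hearts. The number of arrays limits the precision. On simulated data for the Veh-TAC against Veh-Sham comparison over 8336 genes, 50 of 67 genes changed by 2-fold were recovered, and 31 of 67 changed by 1.5-fold. The simulation changed 200 genes and drew independent noise, whereas 25% of all genes were called in these hearts. The share recovered therefore need not hold for the measured data.

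The genes named were the members, their partner isoforms, the listed genes of glucose use that were called, and the gene most like each member by Pearson correlation. Members and lists were chosen with earlier results of these data known. Other settings tried were the background correction, scaling, filter, probe rule, variance model, array weights, array background, replicate block, hearts left out and the methods' t-test.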

Additional observations from a re-analysis of the deposited data

Results flagged for a closer look

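The difference between the responses to TAC was called for Eno2, at -1.14 on the log2 scale, and for the dimmest probe of Pfkm, at 0.90. Both set a response in the Veh-TAC group, a rise of Eno2 and a fall of Pfkm, against little change in the TUDCA-TAC group. For Eno2 part of the difference rests on the sham groups. TUDCA-Sham lay above Veh-Sham by 0.51 ± 0.17 without overlap, which was not called. The Eno2 call was also lost under 14 of 25 other settings, with -0.38 without background correction, an adjusted p of 0.0649 with the replicate block and of 0.0818 with array background as a term. For Pfkm, the brighter probes gave differences of the same sign that were not called.

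Within the TUDCA-TAC group 1 heart lay far from the other 3 for 2 balances. For Pfkp over Pfkm the gap to the nearest heart was 0.849 of the range of the group, and for Eno2 over Eno3 it was 0.863. Both times this was heart 4, with balances of -5.21 and -9.10, and it had the lowest array background. Of 16 values checked in this way chance would set apart about 1 in 20, and the part of the background in these gaps was not tested.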

How the results depend on the processing

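Of 30 fold changes of members and partner genes, each under up to 27 other settings, 708 values kept direction and side of the threshold, 45 lost a call, 28 gained one and 17 changed sign. None of the values that changed sign was called. In the TUDCA-TAC group against the TUDCA-Sham group, Hk2 was -0.07 with array weights, -0.04 with array background as a term and -0.18 without TUDCA-TAC replicates 3 and 4. Eno3 there was 0.00 with array weights, 0.03 without those replicates and -0.09 to 0.08 with 1 heart left out, and Pfkm was 0.01 as a mean over probes and -0.15 to 0.07 with 1 heart left out. In the Veh-TAC group Pfkl was -0.03 with array weights, -0.02 with array background and -0.10 to 0.07 with 1 heart left out, and Slc2a1 was -0.06 to 0.14. The cause was not tested.

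Of the 2 members called in the Veh-TAC group against the Veh-Sham group, the count became 4 with an intensity trend in eBayes, and 1 by the methods' t-test, being Slc2a4 at its fold and unadjusted threshold and Pfkm after Benjamini-Hochberg adjustment (adjusted p = 0.0436, with Slc2a4 at 0.0664 and Eno3 at 0.0792), and it ran from 1 to 3 with 1 heart left out, being 1 without Veh-TAC heart 2. Of the 2 called in TUDCA-TAC against Veh-TAC, 1 was left with median scaling, 1 with the replicate block and 1 by the t-test threshold, 0 with array background as a term, 0 in a fit of 2 groups alone and 0 by the adjusted t-test, and 0 to 2 with 1 heart left out, being 0 without Veh-TAC heart 2. For the difference between the responses, 2 were called with array weights, 1 when any probe counted and 0 to 1 with 1 heart left out. The counts of 0 for TUDCA-TAC against TUDCA-Sham and for the sham groups held at 0 with 1 heart left out.

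With 1 heart left out, the balance in Veh-TAC against Veh-Sham ran from 0.81 to 1.30 for Slc2a1 over Slc2a4, 0.57 to 0.97 for Hk1 over Hk2, 1.40 to 1.65 for Pfkp over Pfkm, 0.38 to 0.52 for Pfkl over Pfkm and 1.28 to 1.82 for Eno2 over Eno3, and with TUDCA from 0.11 to 0.26, -0.15 to 0.10, 0.57 to 0.99, 0.17 to 0.27 and -0.23 to -0.01. Pfkp over Pfkm moved to 2.01 by the dimmest Pfkm probe, and with TUDCA to 1.12 with array background and 0.30 by the other Pfkp probe. Pfkl over Pfkm moved to 0.57 with median scaling, 0.72 as a mean over probes, and 0.73 and 0.95 by the dimmer Pfkm probes. With TUDCA it was -0.04 as a mean over probes, -0.24 by the other Pfkl probe and 0.10 by the next Pfkm probe. Eno2 over Eno3 moved to 0.87 without background correction and 0.87 in the authors' table.

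Replicate numbers were shared between groups without a stated pairing. Of 18 same-numbered pairs of hearts in different groups 8 deviated together by a correlation over 0.1 (median 0.00, range -0.38 to 0.44). Of 45 pairs with other numbers 16 did (median -0.03, range -0.52 to 0.41). The numbers were therefore not taken as pairs. With the replicate block 3 members were called lower in the Veh-TAC group, Pfkm with an adjusted p of 0.0275. All genes called between TUDCA-TAC and Veh-TAC fell from 1376 to 813. Number 4 occurs in the TUDCA-TAC group alone, so the block also takes TUDCA-TAC heart 4 out of the comparisons. Leaving out that heart without a block likewise gave 3 members, and 937 genes between TUDCA-TAC and Veh-TAC. Among all genes, the count for TUDCA-TAC against Veh-TAC was 206 with array background as a term, and median scaling gave 202 higher and 30 lower in TUDCA-TAC against TUDCA-Sham (85 and 64 otherwise) and 16 and 143 for the difference between responses (71 and 107 otherwise). The slide as a block was not run, since the column headers name no slide. Hk1 and Eno2, close to background, are limited by signal.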
